A study of Drosophila melanogaster with 2 samples.

Results

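The 5 GATA transcription factor genes of Drosophila melanogaster, pnr, srp, grn, GATAd and GATAe, and ush, which encodes their cofactor U-shaped, were examined as binding sites of the ceramide synthase schlank in embryos. These 6 genes, of 13945 protein-coding genes annotated in Ensembl on the 6 arms that hold peaks, were chosen by name after their peak signals in these data were known, so their counts, signals and ranks are given as a description with no test. A gene's summits are all peak summits inside the gene or within 2 kb of one of its annotated transcription start sites (TSSs). By this rule the 6 genes held 10 of 2790 thresholded peaks and 68 of 30000 candidates in the list made from both replicates pooled. They held 74 of 30000 candidates in replicate 1 and 69 of 30000 in replicate 2.

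The data are ChIP-seq, which sequences the DNA bound to an immunoprecipitated protein, from whole embryos of both sexes, collected at 0 to 24 h. All embryos were of 1 transgenic line in which schlank carries GFP at its C terminus. The design has 2 biological replicates in 1 group and thus no comparison of conditions, and no control library was used here. The free text of both samples calls them input controls, while their antibody field names schlank; they are taken here as schlank ChIP. Whole embryos mix all cell types, so a signal at a gene used in a few cells cannot be assigned to those cells. The thresholded set is the authors' selection by reproducibility (IDR), and its label does not say which lists were compared for it. It equalled the 2790 strongest pooled candidates, whereas the candidate lists also hold background. Peak signal is the authors' value per peak on an unstated scale, so it is compared within a list only, and rank 1 is the strongest peak of a list. Read depth is unknown.

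GATA factors are zinc finger proteins that bind DNA at sites built around the letters GATA. U-shaped belongs to the FOG family of zinc finger cofactors, which do not act by binding DNA on their own but attach to GATA factors and change whether these activate or repress. In the fly embryo pnr acts in the dorsal ectoderm, amnioserosa and heart, srp in blood cells, fat body and endoderm, and GATAe in the midgut, while grn acts in neurons and in the posterior spiracles. Schlank carries a homeodomain beside its enzyme domain.

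The sequences around the summits on which the results turn are printed here, since each shows what letters lie under a strong or a weak site. They are 201 bases centred on a summit, read 5′ to 3′ on the strand of the named gene from the NCBI Release 6 genome, which has the arm names of dm6. Capitals mark a GATA-type match on either strand, meaning AGATAA or AGATAG or TGATAA or TGATAG. The 3 strongest ush sites that lie outside untranslated exons come first, followed by a weaker ush site with a match, the sites of GATAd and grn, and the strongest candidates of srp and pnr, which did not reach the thresholded set.
ush, summit of rank 4 (chr2L:480994-481194, plus strand): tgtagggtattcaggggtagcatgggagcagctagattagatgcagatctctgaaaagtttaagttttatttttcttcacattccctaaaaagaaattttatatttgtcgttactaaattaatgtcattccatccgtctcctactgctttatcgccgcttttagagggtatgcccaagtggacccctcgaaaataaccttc
ush, summit of rank 145 (chr2L:479961-480161, plus strand): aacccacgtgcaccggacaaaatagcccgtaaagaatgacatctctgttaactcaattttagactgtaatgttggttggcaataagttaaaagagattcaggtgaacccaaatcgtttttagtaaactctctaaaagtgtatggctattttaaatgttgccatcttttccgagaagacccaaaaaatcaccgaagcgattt
ush, summit of rank 261 (chr2L:485768-485968, plus strand): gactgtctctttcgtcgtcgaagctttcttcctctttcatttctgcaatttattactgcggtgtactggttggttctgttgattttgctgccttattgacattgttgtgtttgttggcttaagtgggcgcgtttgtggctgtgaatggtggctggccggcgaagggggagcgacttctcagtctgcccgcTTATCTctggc
ush, summit of rank 1949 (chr2L:520720-520920, plus strand): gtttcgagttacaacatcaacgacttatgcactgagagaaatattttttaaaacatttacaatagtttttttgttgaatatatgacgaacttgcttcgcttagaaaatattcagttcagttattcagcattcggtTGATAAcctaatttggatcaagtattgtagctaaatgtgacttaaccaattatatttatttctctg
GATAd, summit of rank 855 (chr2L:10334985-10335185, plus strand): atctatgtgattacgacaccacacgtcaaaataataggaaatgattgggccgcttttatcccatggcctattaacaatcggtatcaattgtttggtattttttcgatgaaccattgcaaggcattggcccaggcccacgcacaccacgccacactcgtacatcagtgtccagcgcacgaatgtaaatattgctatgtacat
grn, summit of rank 2470 (chr3R:8155872-8156072, minus strand): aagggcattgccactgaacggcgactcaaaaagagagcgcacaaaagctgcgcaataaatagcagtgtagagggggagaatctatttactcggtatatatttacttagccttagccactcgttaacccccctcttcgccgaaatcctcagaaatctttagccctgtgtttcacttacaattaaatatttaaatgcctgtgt
srp, strongest pooled candidate (chr3R:15984404-15984604, plus strand): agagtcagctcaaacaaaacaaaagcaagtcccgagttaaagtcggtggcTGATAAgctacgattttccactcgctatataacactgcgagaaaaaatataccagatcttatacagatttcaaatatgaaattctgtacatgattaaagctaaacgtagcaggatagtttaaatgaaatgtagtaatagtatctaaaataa
pnr, strongest pooled candidate (chr3R:16025858-16026058, plus strand): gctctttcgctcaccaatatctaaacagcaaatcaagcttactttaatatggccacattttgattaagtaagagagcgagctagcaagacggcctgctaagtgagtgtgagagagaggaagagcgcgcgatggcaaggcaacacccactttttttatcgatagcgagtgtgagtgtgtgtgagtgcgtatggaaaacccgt

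By the window rule, the region of the cofactor gene held most of the strong schlank-GFP sites of these genes. ush held 8 thresholded summits, GATAd 1 and grn 1, while pnr, srp and GATAe held none. Of the 8, 4 lay nearer to the start of cbt, a gene inside ush, and 4 lay nearer to a ush TSS. Thus 3 of the 6 genes had a thresholded summit, beside 21.0% of all protein-coding genes (2927 of 13945). All 6 had a pooled candidate, beside 70.5% of all genes. Longer genes have more room for summits, and the 6 genes were longer than most, from 5.45 kb for GATAd to 64.3 kb for ush, against a median of 2.17 kb over all genes.

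**Figure D1:**
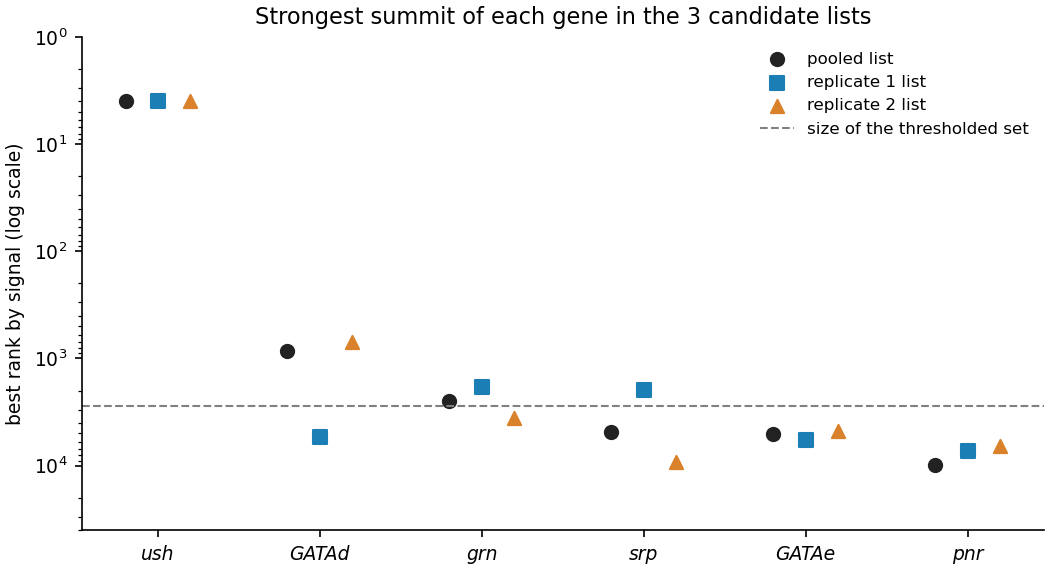
Best rank by signal (log axis, strongest at the top) of any summit of each gene in the pooled list, replicate 1 and replicate 2; the dashed line marks rank 2790, the size of the thresholded set. ush was at rank 4 in all 3 lists, and the order of the other 5 genes differed between the replicates.

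The strongest ush summit had rank 4 in the pooled list with a signal of 2296. In replicate 1 its signal was 612 and in replicate 2 it was 1664, at rank 4 of 30000 in each list, and the replicate summits lay 11 bp and 0 bp from the pooled one. Only 4 protein-coding genes had a stronger best summit in the pooled list. No other gene of the 6 came near this, and the next in the pooled list was GATAd at rank 855. Below ush the order depended on the replicate. Each best rank is that of any summit of the gene, and for GATAe and pnr the best summits in the replicates were different sites. In replicate 1 the best ranks were 1836 for grn, 1956 for srp, 5459 for GATAd, 5775 for GATAe and 7373 for pnr. In replicate 2 they were 698 for GATAd, 3630 for grn, 4760 for GATAe, 6587 for pnr and 9179 for srp. GATAd stood below grn and srp in replicate 1 and above both in replicate 2. srp stood above GATAe and pnr in replicate 1 and below both in replicate 2, while grn stood above srp in each replicate.

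ush (FBgn0003963) lies on 2L from 476220 to 540560 on the plus strand, with 4 annotated TSSs, the first at 476220 and the last at 523736. Its strong summits crowded into the first long intron. Between the first TSS and the next, at 490835, 14.6 kb of sequence held 6 thresholded summits (0.411 per kb). The following 32.6 kb held 1 (0.0306 per kb), and the last 17.1 kb held 1 (0.0585 per kb). The pooled candidates were spread more evenly over these segments, with 1.23, 0.552 and 0.468 per kb, so the concentration near the 5′ end was steeper for the thresholded summits.

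**Figure D2:**
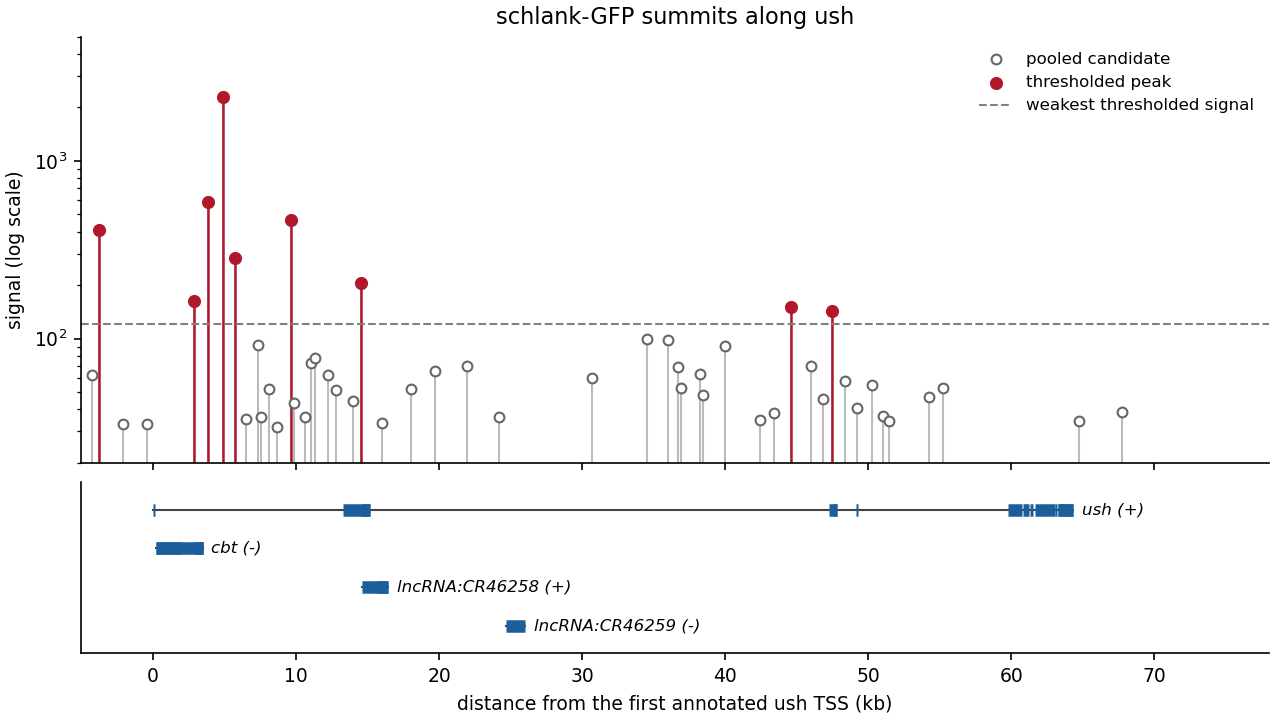
Pooled candidates (open) and thresholded peaks (filled) by distance from the first annotated ush TSS in kb, with signal on a log axis, above the exons (boxes) of ush and the genes within it. The strongest peak, with a signal of 2296, lies 4.87 kb into ush and upstream of cbt, which is read from the opposite strand; the peak at the left edge, outside the 2 kb window, lies beside CG4297.

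The ush region also contains another transcription factor gene. cbt (FBgn0043364, 2L, 476446 to 479688, minus strand) lies inside that long intron and encodes the zinc finger protein Cabut, which is needed for dorsal closure of the embryo. The summit of rank 4, at 481094, lay 1406 bp upstream of the cbt TSS and 4874 bp from the nearest ush TSS. The summit at 480061 had a signal of 590 (rank 145), with 121 in replicate 1 and 446 in replicate 2, and lay 373 bp upstream of the cbt TSS. The summit at 481965 had a signal of 284 (rank 645), with 80.1 in replicate 1 and 209.6 in replicate 2, and lay 2277 bp upstream of it. The summit at 479120 had a signal of 163 (rank 1705), with 36.8 in replicate 1 and 125 in replicate 2, and was inside cbt, 568 bp downstream of its TSS. Thus 4 of the 8 ush summits, including both of the strongest, lay nearer to cbt than to any ush TSS, and 4 lay nearer to ush. The peak lists do not tell which of the 2 genes such a site serves.

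The other 4 ush summits lay in its introns or at its own later start sites. The strongest of them, at 485868, had a signal of 465 (rank 261) with 122 in replicate 1 and 340 in replicate 2, and lay in an intron 4967 bp upstream of a ush TSS. The summit at 490747, with a signal of 207 (rank 1139), lay 88 bp upstream of the TSS at 490835, which ush shares with the non-coding gene lncRNA:CR46258, and it had 45.0 in replicate 1 and 164 in replicate 2. The intronic site had rank 358 in replicate 1 and 251 in replicate 2, and the start site had rank 2348 in replicate 1 and 959 in replicate 2. The summit at 520820 had a signal of 151 (rank 1949), with 60.8 in replicate 1 (rank 1387) and 83.7 in replicate 2 (rank 3094). The summit at 523716, 20 bp from the TSS at 523736, had a signal of 144 (rank 2133), with 124.6 in replicate 2 at rank 1542, but 13.2 in replicate 1 at rank 27418 of 30000. That site therefore rested on replicate 2.

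The summits of ush were close together as well as strong. The 5 from 479120 to 485868 lay within a few kb, and the summit of rank 4 had 4 other thresholded summits within 5 kb, more than 97.9% of all thresholded peaks had (59 of 2790 had as many or more). Of 567 protein-coding genes with 0.5 to 2 times the length of ush, 98.9% had fewer thresholded summits per kb than its 0.121. For pooled candidates ush had 0.678 per kb against a median of 0.202 in these genes, and 96.8% of them had fewer. Over all 13945 genes, 5 held more thresholded summits than ush, namely shn (16), CHES-1-like (13), Raf (10), and CG1677 and bun (9 each). Leaving out the 4 summits nearer to cbt would give ush 4.

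**Figure D3:**
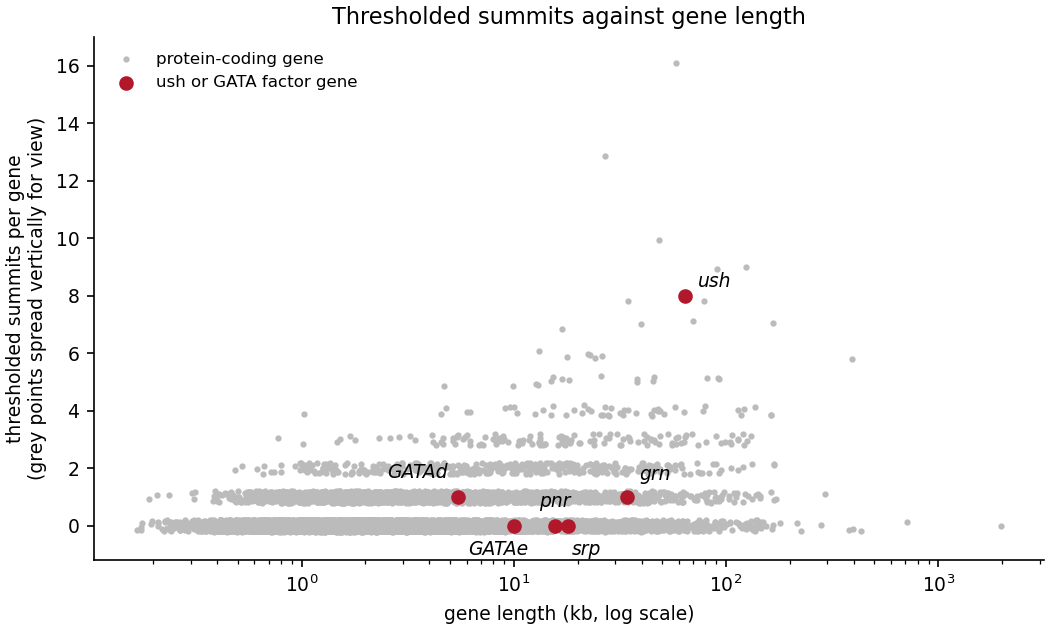
Thresholded summits per gene (vertical axis) against gene length in kb (log axis) for 13945 protein-coding genes (grey, spread vertically for view) and the 6 genes (red). ush, with 8 summits, is above most genes of its length, while the GATA factor genes have 0 or 1.

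GATAd (FBgn0032223, 2L, 10333734 to 10339185, plus strand) had its thresholded summit at 10335085, in the first intron 1171 bp downstream of a TSS. Its signal was 243 (rank 855) in the pooled list. It had 28.1 in replicate 1 (rank 5459) and 197 in replicate 2 (rank 698), so its place in the thresholded set reflects replicate 2 more than replicate 1. The other pooled candidates of GATAd were weaker, with 62.6 at 59 bp from a TSS and 53.9 in the coding part of its first exon. Of 3928 genes of similar length, 82.9% had fewer thresholded summits per kb than the 0.134 of GATAd, and 25.2% had any.

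grn (FBgn0001138, 3R, 8147368 to 8181444, minus strand) had its thresholded summit at 8155972, in intron 5 and 25472 bp from its only TSS. Its signal was 131 (rank 2470), against 121 for the weakest peak of the set. It had 51.6 in replicate 1 (rank 1836) and 76.2 in replicate 2 (rank 3630), and the replicate summits lay 1 bp and 29 bp away. The strongest candidate of grn that missed the set lay at its promoter, 96 bp upstream of the TSS, with a signal of 99.8 (rank 3825). These 2 grn summits were the nearest of the 6 genes to the edge of the set, inside and outside. At 0.0277 per kb, grn had more thresholded summits than 66.2% of 1035 genes of similar length, 41.4% of which had any.

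srp, GATAe and pnr follow each other on 3R on the plus strand, and all 3 held weak candidates. srp (FBgn0003507) runs from 15986152 to 16004085, GATAe (FBgn0038391) from 16009105 to 16019133 and pnr (FBgn0003117) from 16026079 to 16041796. The stretch of 55.6 kb from the start of srp to the end of pnr held 16 pooled candidates, against a median of 12 in 2404 tiles of that length along the genome. It held 2 thresholded summits, both between srp and GATAe and outside the 2 kb windows; 50.5% of the tiles held none and 83.4% held 2 or fewer. The stronger, at 16006123, had a signal of 174 (rank 1534). It had 75.1 in replicate 1 (rank 908) and 95.3 in replicate 2 (rank 2449), and lay 2982 bp upstream of the GATAe TSS. The other, at 16005242, had a signal of 148 (rank 2031), with 51.1 in replicate 1 (rank 1872) and 92.7 in replicate 2 (rank 2572). This summit lay 3863 bp upstream of the GATAe TSS and 1157 bp beyond the end of srp. Both lie within the non-coding gene lncRNA:CR42839. With a window of 5 kb they would count for GATAe.

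**Figure D4:**
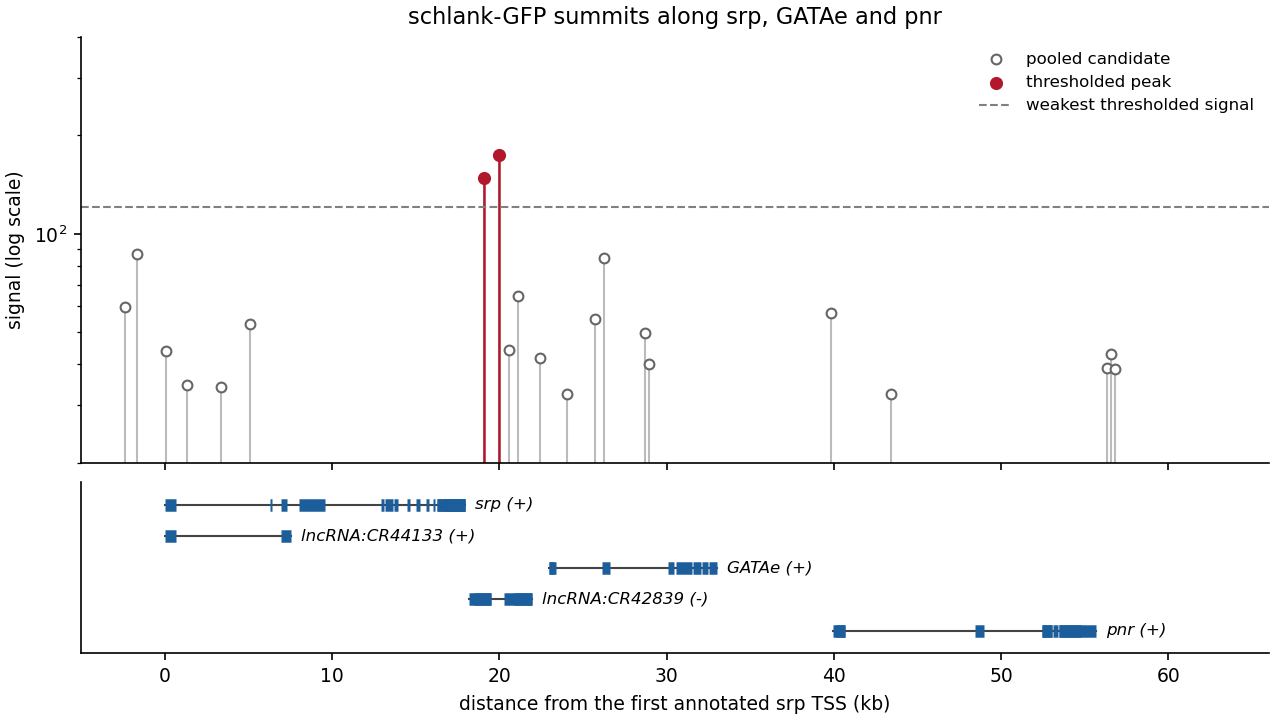
Pooled candidates (open) and thresholded peaks (filled) by distance from the first annotated srp TSS in kb, with signal on a log axis, above the exons of srp, GATAe, pnr and the non-coding genes beside them. Both thresholded peaks, with signals of 148 and 174, lie in the gap between srp and GATAe.

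Within its own window srp had 5 pooled candidates, the strongest with a signal of 86.6 (rank 4863), 1648 bp upstream of its first TSS. At that site the signal was 49.6 in replicate 1 (rank 1956) and 45.1 in replicate 2 (rank 9179). GATAe had 7 pooled candidates, led by one of 84.6 (rank 5061) 125 bp downstream of its internal TSS, with 14.1 in replicate 1 (rank 23953) and 65.2 in replicate 2 (rank 4760). pnr had the fewest, 2, the stronger with a signal of 57.5 (rank 9788) 121 bp upstream of its first TSS. That pnr site had 54.5 in replicate 2 (rank 6587) and no candidate within 200 bp in replicate 1. Per kb of window, pooled candidates numbered 0.582 at GATAe, 0.251 at srp and 0.113 at pnr, and 84.4%, 48.4% and 22.6% of genes of similar length had fewer.

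A candidate of each replicate lay within 200 bp of all 10 thresholded summits of the 6 genes. This is close to fixed for any thresholded peak. Over all of them it was so for 95.1% with replicate 1 and 99.5% with replicate 2. Among the 2790 strongest candidates of each replicate alone, 7 of the 10 summits were matched in replicate 1 and 8 in replicate 2. The ranks differed most at the ush site at 523716 and at the GATAd site, both lower in rank in replicate 1 than in replicate 2. Among the 68 pooled candidates of the 6 genes, 36 (52.9%) were matched within 200 bp in both replicates, 10 in replicate 1 alone, 21 in replicate 2 alone and 1 in neither. Over all 30000 pooled candidates, 37.9% had one in both. ush had 24 of 45 in both, GATAe 4 of 7, srp 3 of 5, grn 3 of 6 and GATAd 2 of 3, and neither of the pnr candidates did. The pooled list contains the reads of both replicates, so these shares are not independent of it.

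**Figure D5:**
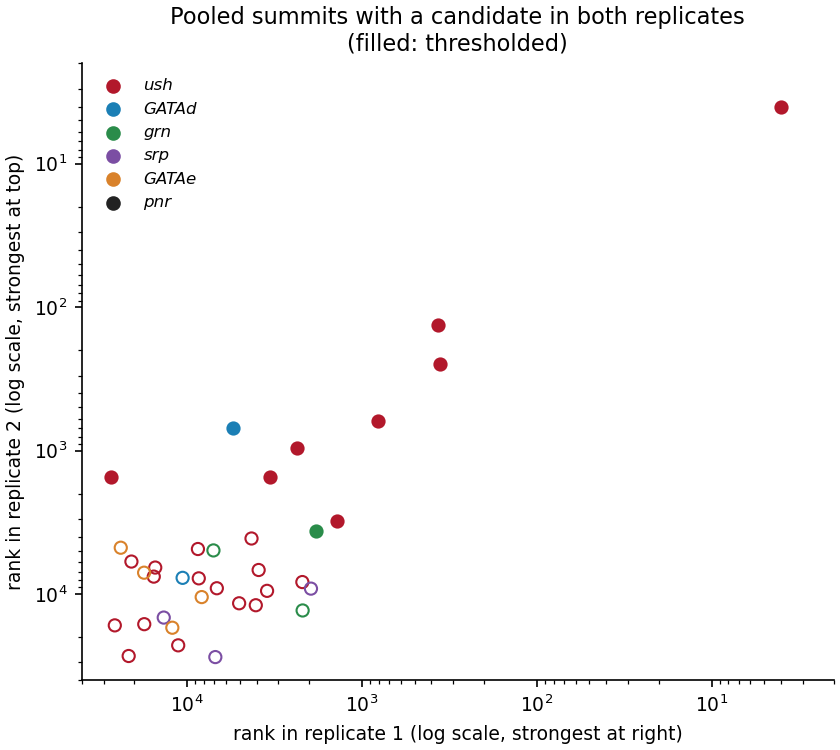
Rank in replicate 2 against rank in replicate 1 (log axes, strongest at the upper right) for the 36 pooled summits of the 6 genes with a candidate in both replicates; filled points are thresholded. The ush site at rank 4 in both stands alone, and 1 filled ush point at rank 27418 in replicate 1 is the site at 523716.

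Most of these summits lay in introns, as did most summits at other genes of this range of lengths. Of the 10 thresholded summits, 8 were in introns of every transcript of the member gene that covers them, and 2, at the later ush start sites, were in a 5′ untranslated exon of one transcript and an intron of others. The summit at 479120, in an intron of ush, also lay in a 5′ untranslated exon of cbt. None lay in a coding exon. Of the 68 pooled candidates, 55 were in introns, 6 upstream of the gene and 1 in a coding exon. By the same rule, introns held 63.5% of thresholded and 67.3% of pooled summits at the 3042 protein-coding genes from 5.45 to 64.3 kb long, the range of the 6 genes, and 37.5% and 47.3% at all protein-coding genes. The mean GC content within 100 bp of the 10 summits was 43.2% ± 8.92 (SD across summits), against 38.5% ± 7.35 in all thresholded peaks.

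The letters that GATA factors recognise lay under some of the thresholded summits of these genes. A GATA-type match, as spelled out above, occurred within 100 bp of 3 of the 10 summits, compared with 38.3% of all 2790 thresholded peaks and 31.3% of the 26849 pooled candidates that overlapped none. The matches lay at the ush summits at 485868, 490747 and 520820, and the summit of rank 4 had none. Among the 58 weaker pooled candidates of the 6 genes, 26 (44.8%) had a match. Unlike the 26849, these 58 can overlap a thresholded peak, as the ush candidate at 486067 did, so the 2 shares are not strictly alike. The homeodomain core TAATTA occurred at 0 of the 10 summits, which allows a share of up to 30.0%, and at 14.6% of all thresholded peaks. GAGAG, a repeat recognised by the GAGA factor, occurred at 5 of the 10, compared with 25.5% of all thresholded peaks. Of its 26 matches at the 10 summits, 19 lay in the repeat under the ush start site at 490747, where the GATA-type match also falls. A match is a description of letters and does not show what binds there.

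Partners of GATA factors, and genes of pathways and tissues in which GATA factors act, were counted with the same window. By this window 21.0% of all protein-coding genes had a thresholded summit. Of 10 genes for GATA cofactors and chromatin partners, 7 had one. The best summit of Mi-2 (signal 462) lay 6961 bp from a Mi-2 TSS and nearer to that of Su(Tpl), at 6156 bp. For HDAC1 the best summit (149) lay 1766 bp from its TSS and nearer to that of Src64B, at 1164 bp. The strongest summit of this list was at osa, a subunit of the Brahma chromatin remodeller (718, 13964 bp from a TSS). Next came brm, the ATPase of that remodeller (494, 95 bp), and nej, the acetyltransferase CBP (473, 672 bp). Of 18 genes of the dorsal ectoderm, amnioserosa and heart, 6 had one, led by shn, a zinc finger factor of Dpp signalling, with 16 summits and a best signal of 565, then Mad, its Smad partner (179), and tup, a LIM homeodomain factor (152). The tup summit lay 16974 bp from a tup TSS and nearer to that of CG10602, at 5039 bp. Of 11 endoderm and gut genes, 3 had one, namely fkh (782), cad (370) and bowl (243), all transcription factor genes. The cad summit lay 10066 bp from a cad TSS and nearer to that of Pomp, at 6696 bp.

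The other lists were those of the blood, neural and fat body genes. Among 15 hemocyte genes the only one with a thresholded summit was zfh1, a zinc finger homeodomain factor (300). Among 11 proneural and wingless genes it was hry, which encodes the repressor Hairy (127). The fat body genes had 2 of 13, DNaseII (122) and CecA1, an antimicrobial peptide gene (299), whose summit lay 1942 bp from the CecA1 TSS and 10 bp from that of RpS7. Over all 78 genes, 20 (25.6%) had a thresholded summit, compared with the 21.0% of all protein-coding genes given above. The lists differ in gene length, with a median of 18.0 kb for the cofactors and 1.79 kb for the fat body genes, and of the 1724 genes between 7.86 and 31.4 kb, 37.6% had a thresholded summit. Length was not held equal in the list counts.

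Genes with best ranks most like those of ush were found by distance on log10 ranks over the 3 candidate lists, of which the pooled list is not independent of the other 2. Among 7692 genes with a candidate in all 3, the nearest was cbt, at a distance of 0 because it shares the site, followed by Ugalt and eIF2Bbeta, which tied at 0.34. The nearest to GATAd were CG30010 (0.0717) and Nop10 and mms4, which tied at 0.0949. These are likenesses of rank and say nothing of function.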

How the data were processed

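The deposited lists are 1 peak list per replicate, 1 from both replicates pooled and 1 thresholded IDR set, on dm6, per the labels and the deposited file lists. Neither the aligner, the caller nor the IDR cutoff is given in the sources used. Signal values are the strength per peak that the authors deposited, and the deposited −log10 q-value column was not used. Summits were placed at the start of each peak plus its offset. Depth is unknown, so no interval is given.

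Genes and TSSs came from Ensembl release 115 and sequence from the NCBI Release 6 assembly. No peak ran beyond an arm's end, and all 25 coding transcripts of the 6 genes start with ATG in it. Summits within 200 bp counted as shared. The members, lists and windows were chosen with earlier results of these data known, and no test was made. The named genes are the 6 members, up to 3 genes per list with the strongest thresholded summit, genes whose TSS is nearer to a summit, and those nearest in rank to ush and GATAd. Further genes (shn and others by count, CG4297, RpS7, Mi-2, HDAC1) were named after their values were seen. Hdac3, Rpd3 and h were matched as HDAC3, HDAC1 and hry through RefSeq synonyms. Window counting and letter search were tested on simulated data and were right for 200 of 200 genes and 200 of 200 sequences. Python 3.11.15, numpy 2.4.6, pandas 2.3.3 and matplotlib 3.10.9 were used.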

Additional observations from a re-analysis of the deposited data

How the results depend on the processing

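No paired analysis was possible because the 2 replicates form 1 group and no test was made. Of 42 alternative values, 36 stayed within 1.5 times the reported count or within a 95% interval, not printed here, of the reported share of genes. That interval served as a yardstick only, since genes are not replicates. In the stronger 50% of thresholded peaks the 6 genes held 6 summits in place of 10 (5 at ush and 1 at GATAd, none at grn), and 11 listed genes in place of 20 had a summit. With summits nearer to the TSS of another protein-coding gene left out, a choice added after the data were seen, 6 summits remained, 4 of them at ush. The share of like-length genes with fewer summits per kb became 72.1% for grn and 93.0% for GATAd when gene spans alone were used, and 78.5% for GATAd among genes with a pooled candidate. Taking the 2790 strongest candidates of 1 replicate in place of the thresholded set gave 8 to 11 summits at 2 to 3 genes. Without replicate 2 these were 8 at ush, 2 at grn and 1 at srp, with none at GATAd. Without replicate 1 they were 7 at ush and 1 at GATAd, with none at grn. The 8 ush candidates without replicate 2 were not the 8 thresholded sites. Those at 479120 and 523716 had ranks 3347 and 27418 in replicate 1 and were left out. Candidates at 510750 and 522903 (ranks 2191 and 2715) were counted instead. Without replicate 1 the ush site at 520820, of rank 3094 in replicate 2, was left out. The calls at GATAd, grn and srp, and at these ush sites, thus each depend on which replicate is used. Candidates of the 6 genes numbered 74 in the whole list of replicate 1 and 69 in that of replicate 2, beside 68 in the pooled list. Listed genes with a summit among the 2790 strongest candidates numbered 20 without replicate 2 and 18 without replicate 1. With a 5 kb window GATAe gained 2 summits and ush 1. Read depth is not given in the lists, and the deposited −log10 q-values were not used. Weak candidates were thus not told apart from background here.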
